A study of Arabidopsis thaliana with 2 samples.

Results

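The glycosyltransferases and glutathione transferases of Arabidopsis thaliana were compared between the wax-deficient mutant cer6-2 and Ler-0 wild-type plants. The members were all genes whose symbol in the platform annotation began with UGT and a number, or with GSTU, GSTF, GSTL, GSTT or GSTZ and a number. The rule used names only and no measured value. It found 58 of the 9236 genes named on the array, 45 glycosyltransferases and 13 glutathione transferases, each with 1 feature. The gene table of assembly TAIR10.1 holds 58 UGT and 47 GST symbols of this form, and those without a named feature were not analysed here.

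Aerial parts of 15-day-old plants, leaves and stems, were pooled from 20 plants of each genotype, untreated, grown at 22 °C and 80% humidity with 16 h light and 8 h dark. cer6-2 is a mutant of CER6, which encodes an enzyme that elongates fatty acids for the surface wax, and Ler-0 denotes Landsberg erecta, known to carry a mutation in the receptor kinase gene ERECTA. The labels give no other allele or agent for either genotype. The same genotypes were hybridised on 2 two-colour arrays, with cer6-2 in Cy3 on array 1 and in Cy5 on array 2. As the labels name 1 pool per genotype, the arrays are technical repeats of 1 biological replicate, no test is possible, and no p-value is given.

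All values below are log2 ratios of cer6-2 over Ler-0, given for each array or as the mean of both ± the SD between them (n = 2 arrays), so they are differences and not levels. A gene counted as called if both arrays put it at least 2-fold to the same side, 1 or more on the log2 scale, which is a rule of size. The direction is likely but not settled, because the sources name the dyes and not the numerator of the deposited ratio. Under the opposite convention every "higher" becomes "lower". CER6 has 0 named features, so no value of the mutated gene is available to check which plants are mutant.

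UDP-dependent glycosyltransferases attach a sugar from a UDP-sugar to small acceptors such as flavonoids, phenylpropanoids, hormones and foreign compounds, which changes their solubility, activity and storage. Glutathione transferases join the tripeptide glutathione to reactive compounds, or act as carriers and peroxidases. In plants both classes are large, expanded by tandem duplication, and known for genes that respond to stress, defence signals and herbicides. The tau (GSTU) and phi (GSTF) classes are the large plant classes, and lambda (GSTL) proteins have a catalytic cysteine.

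Only 1 of the 58 genes was called, the tau class gene GSTU25, which was lower in cer6-2. That share of 1.72% stood beside 1.32% of all 9236 named genes called in either direction and 0.725% called lower. By class, 0 of 45 glycosyltransferases and 1 of 13 glutathione transferases were called, and none in either class was called higher, against 0.595% of all genes. The glycosyltransferases had a median of -0.091, with the middle of the set between -0.27 and 0.15 (quartiles) and extremes of -1.06 and 0.997. The glutathione transferases had a median of 0.015, quartiles of -0.27 and 0.18 and extremes of -1.98 and 0.75. The median over all named genes was 0, with quartiles of -0.14 and 0.15. At a lower limit of 1.5-fold on both arrays, 1 glycosyltransferase (UGT76E2, higher) and 1 glutathione transferase (GSTU25) were called, against 3.7% of all named genes. A mean within 1.5-fold of no difference was found for 42 of the 45 glycosyltransferases and 11 of the 13 glutathione transferases. The shares at or past 1.5-fold by the mean were 6.67% and 15.4%, against 7.23% of all named genes.

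**Figure D1:**
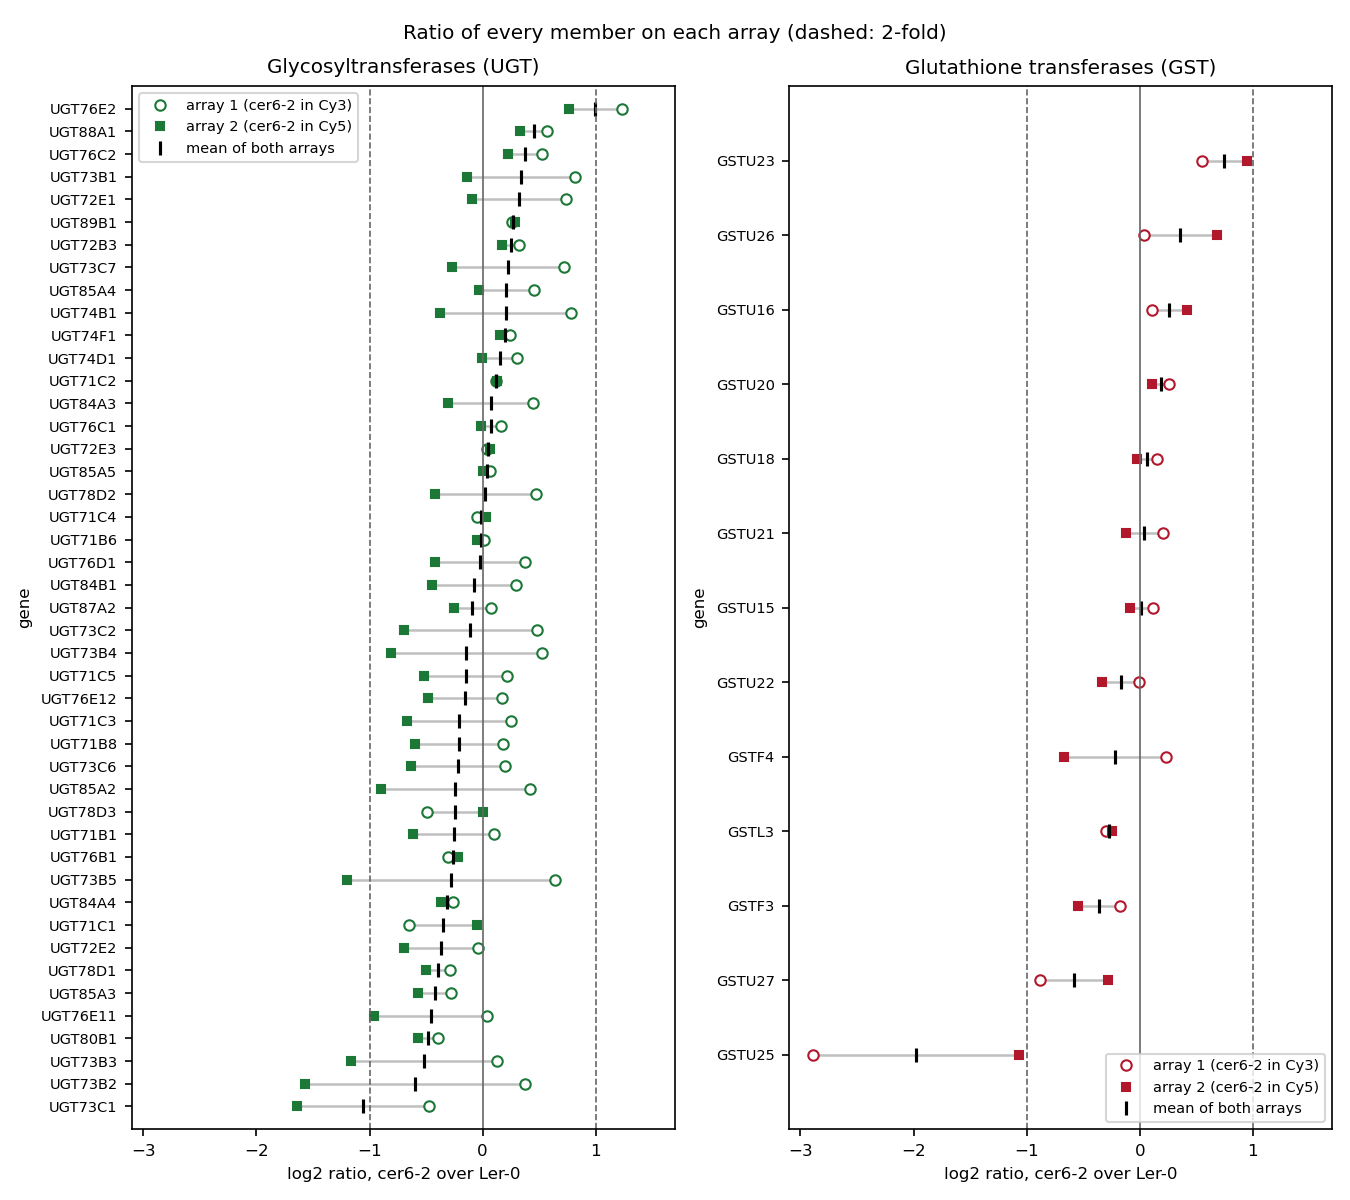
Log2 ratio of cer6-2 over Ler-0 for each of the 45 glycosyltransferases (left) and 13 glutathione transferases (right), ordered by the mean. Open circles are array 1, filled squares array 2, black ticks the mean, and dashed lines mark 2-fold. GSTU25 is the only gene beyond the same dashed line on both arrays, and the squares of many UGT genes lie left of 0 while their circles lie right of it.

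GSTU25 (AT1G17180), a tau class enzyme known to conjugate the explosive trinitrotoluene, stood at -2.89 on array 1 and -1.06 on array 2. Both arrays put it lower in cer6-2, by 7.39-fold and 2.09-fold, and the second value lay just past the 2-fold limit. Its mean of -1.98 ± 1.29 (3.93-fold) was the 15th lowest of all named genes. The spread between the arrays was large against the difference. The call also rests on columns deposited unturned. Had both columns been turned to a common direction by the authors, the arrays would oppose each other and the gene would not be called.

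The glutathione transferase with the highest mean was GSTU23 (AT1G78320), at 0.55 on array 1 and 0.95 on array 2. Both values were above 0 and below the limit, with a mean of 0.75 ± 0.28 (1.68-fold). GSTU27 (AT3G43800) was the second lowest, at -0.88 and -0.28, with a mean of -0.58 ± 0.42 (1.497-fold). It was below 0 on both arrays without passing the limit on either. None of the remaining tau genes was 2-fold apart on either array. GSTU26 stood at 0.036 and 0.68 on the arrays (mean 0.36 ± 0.46) and GSTU16 at 0.11 and 0.42 (mean 0.26 ± 0.22), both above the upper quartile of all named genes. GSTU20, also known as FIP1 and a binding partner of the jasmonate-conjugating enzyme JAR1, stood at 0.18 ± 0.11. GSTU18, GSTU21 and GSTU15 had means of 0.063 ± 0.12, 0.039 ± 0.23 and 0.015 ± 0.14 and lay on opposite sides of 0 on the arrays, and GSTU22 stood at -0.17 ± 0.23.

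The phi and lambda classes were thinly covered. GSTF3, whose sequence is close to that of its paralog GSTF2, stood at -0.18 on array 1 and -0.54 on array 2, with a mean of -0.36 ± 0.26. GSTL3 gave -0.30 and -0.24, a mean of -0.27 ± 0.04 with the closest repeat of the class. GSTF4 had opposite signs, 0.23 and -0.67, and a mean of -0.22 ± 0.64. The well-known stress and flavonoid genes GSTF2, GSTF6, GSTF8 and GSTF12, and the class zeta gene GSTZ1 of tyrosine breakdown, were not analysed here. In all, 9 of the 13 glutathione transferases lay on the same side of 0 on both arrays, 4 above and 5 below. That is 69.2% against 43.5% of all named genes. A high share was not particular to this class, as 12 of 19 genes with cytochrome P450 symbols (63.2%) also lay on the same side.

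Among glycosyltransferases the nearest to a call was UGT76E2 (AT5G59590), at 1.23 on array 1 and 0.76 on array 2. It was higher in cer6-2 on both arrays, by 2.35-fold and 1.69-fold, and its mean of 0.997 ± 0.33 fell just short of 2-fold. It was the 92nd highest of all named genes. UGT73C1 (AT2G36750), which in vitro glucosylates cytokinins, was the lowest, at -0.48 and -1.64. Both values were below 0 and the mean was -1.06 ± 0.82, past 2-fold only through array 2. The next highest were UGT88A1 at 0.45 ± 0.17 and the cytokinin N-glucosyltransferase UGT76C2 at 0.38 ± 0.21, each above 0 on both arrays. They were followed by UGT73B1 at 0.34 ± 0.68 and UGT72E1, a monolignol glucosyltransferase, at 0.32 ± 0.59, whose arrays disagreed in sign. UGT89B1, at 0.27 ± 0.02, had 0.26 and 0.28 on the arrays.

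Enzymes of flavonoid glycosylation were not called. UGT78D1, the flavonol 3-O-rhamnosyltransferase, stood at -0.29 on array 1 and -0.50 on array 2, with a mean of -0.40 ± 0.15. UGT78D2, the flavonoid 3-O-glucosyltransferase, gave 0.48 and -0.43, with a mean of 0.025 ± 0.64. The adjacent UGT78D3, the flavonol 3-O-arabinosyltransferase, gave -0.49 and was listed at exactly 0 on array 2. UGT73C6, the flavonol 7-O-glucosyltransferase, stood at -0.22 ± 0.59 with opposite signs. The sterol glucosyltransferase UGT80B1, also named TRANSPARENT TESTA 15 for its pale seed coat mutant, was below 0 on both arrays at -0.39 and -0.57 (mean -0.48 ± 0.12).

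Enzymes that conjugate hormones and defence compounds were also within the limit. UGT74F1, which glucosylates salicylic acid, stood at 0.24 and 0.15 (mean 0.197 ± 0.06). UGT76B1, which conjugates isoleucic acid, salicylic acid and N-hydroxypipecolic acid and dampens defence, stood at -0.31 and -0.22 (mean -0.27 ± 0.06). These genes thus lay on opposite sides of 0, each with a small spread between arrays. The abscisic acid glucosyltransferases UGT71C5 and UGT71B6 had means of -0.15 ± 0.52 and -0.019 ± 0.04. UGT76C1, the paralog of UGT76C2, stood at 0.072 ± 0.13, and the auxin glucosyltransferase UGT84B1 at -0.077 ± 0.53. UGT74B1, the S-glucosyltransferase of glucosinolate core synthesis, gave 0.78 on array 1 and -0.38 on array 2.

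Enzymes of monolignols and hydroxycinnamates went both ways. Of the monolignol glucosyltransferases, UGT72E2 stood at -0.041 and -0.69 (mean -0.37 ± 0.46) and UGT72E3 at 0.036 and 0.066 (mean 0.051 ± 0.02). UGT84A4 and UGT84A3, which form glucose esters of hydroxycinnamic acids, stood at -0.32 ± 0.08 and 0.073 ± 0.53. Other members of the lower end were UGT76E11 at -0.46 ± 0.71, with 0.042 and -0.96 on the arrays, and UGT85A3 at -0.42 ± 0.20, with -0.28 and -0.57.

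Many of the glycosyltransferases differed between the arrays, a measure that the rule did not use. Of the 45 genes, 26 (57.8%) lay above 0 on array 1 and below 0 on array 2, against 23.8% of all named genes. The reverse, below 0 on array 1 and above 0 on array 2, was found for 1 gene, UGT71C4, against 29.9% of all named genes. The class had a median of 0.22 on array 1 and -0.37 on array 2, whereas all named genes had medians of -0.0059 and 0.029. The median SD between the arrays was 0.46 for the class and 0.26 for all named genes. On the same side of 0 on both arrays lay 17 of the 45 (37.8%), 9 above and 8 below, against 43.5% of all named genes. For 31 of the 45 the SD exceeded the size of the mean, which holds for any gene with opposite signs on the arrays. That share was not computed over all named genes. Medians shifted the same way in related sets. Among the 13 glutathione transferases, 4 (30.8%) lay above 0 on array 1 and below on array 2 and 0 the reverse way, with medians of 0.11 and -0.12 and a median SD of 0.23. Of 19 genes with cytochrome P450 symbols, the oxidising enzymes that often act before conjugation, 6 (31.6%) lay above and then below and 1 (5.26%) the reverse way, with medians of 0.13 and -0.18. These shares are descriptions, as family members can share probe properties and are not independent.

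**Figure D2:**
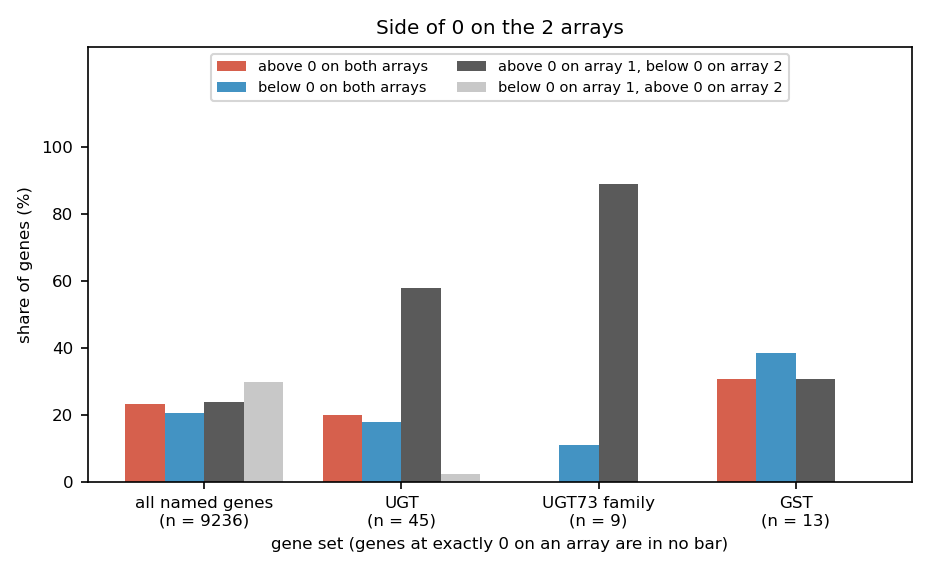
Share of genes (%) in each combination of sides of 0 on the arrays, for all 9236 named genes, the 45 UGT genes, the 9 genes of the UGT73 family and the 13 GST genes. The dark grey bar, above 0 on array 1 and below 0 on array 2, is 23.8% for all genes, 57.8% for UGT and 88.9% for UGT73.

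The difference between the arrays was widest in the UGT73 family, stress-responsive enzymes that conjugate flavonols, hormones and foreign compounds. Of its 9 measured genes, 8 lay above 0 on array 1 and below 0 on array 2, and UGT73C1 lay below 0 on both. UGT73B2 gave 0.38 and -1.57, UGT73B5 gave 0.64 and -1.20, and UGT73B3 gave 0.13 and -1.17. These 3 genes and UGT73C1 were the 4 glycosyltransferases at least 2-fold lower on array 2, against 2.17% of all named genes. On array 1 alone, UGT76E2 was the 1 glycosyltransferase past 2-fold, and it was higher, against 1.23% of all named genes. UGT73B4 gave 0.52 and -0.81, UGT73C2 0.48 and -0.698, UGT73C7 0.72 and -0.27 and UGT73B1 0.81 and -0.14. The family medians were 0.48 on array 1 and -0.81 on array 2, with a median SD of 0.83. Without this family, 18 of 36 glycosyltransferases (50%) showed the same combination, and the medians were 0.17 and -0.24. Singling out this family followed from its values. A gene on opposite sides after turning lies on the side of the same dye on both arrays. The part of the dye in these values was not tested, and the signal levels that could bear on it were not used here.

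**Figure D3:**
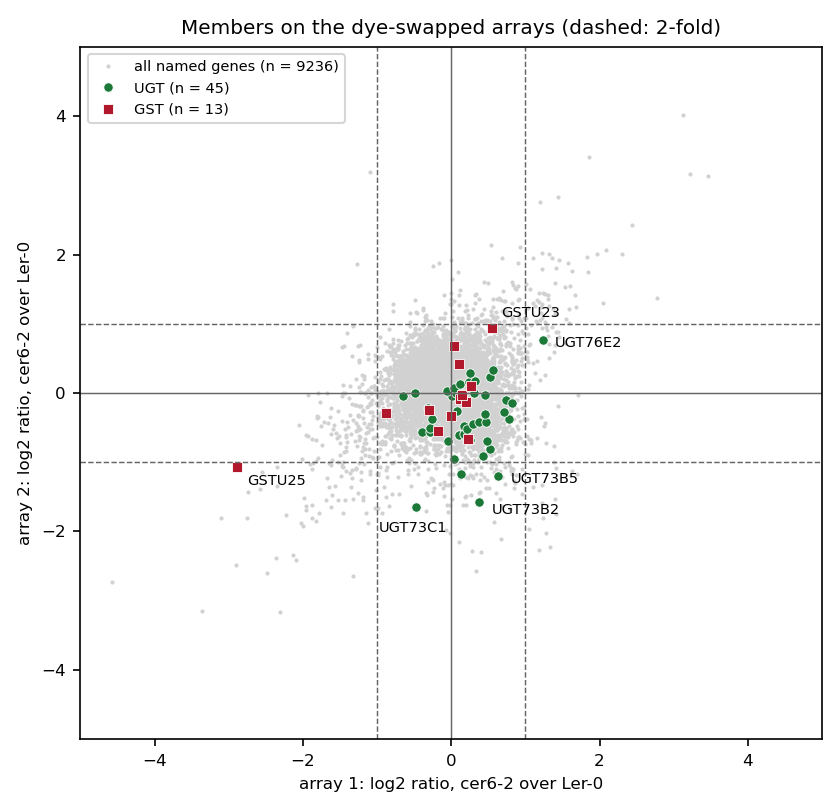
Log2 ratio on array 1 (x axis) against array 2 (y axis) for all named genes (grey), UGT genes (green circles) and GST genes (red squares), with dashed lines at 2-fold. GSTU25 is alone among the members in the lower left corner beyond both lines, and 26 of the 45 UGT genes lie below and right of 0.

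Across the 45 glycosyltransferases the arrays correlated at Pearson's r = 0.20 (Spearman's rho 0.09), and across the 13 glutathione transferases at r = 0.64 (rho 0.54), compared with r = 0.17 (rho -0.04) over all named genes. These are correlations across genes measured on the same pair of arrays and are given as a description. The glutathione transferase values include GSTU25, far below the other members at -2.89 and -1.06, and were not computed without that gene.

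Neighbouring members were then compared, taking as neighbours genes of a class with at most 1 protein-coding gene between them in the gene table. They comprised 25 glycosyltransferases in 11 groups and 6 glutathione transferases in 2 groups. GSTU25 and its neighbour GSTU26 on chromosome 1 differed by 2.33 on the log2 scale, the widest range of the 13 groups. GSTU26 stood at 0.036 on array 1 and 0.68 on array 2, above 0 on both, where GSTU25 was below. In the group GSTU23, GSTU22, GSTU21 and GSTU20, also on chromosome 1, the means ran from -0.17 to 0.75, a range of 0.92. The trio UGT73B3, UGT73B2 and UGT73B1 on chromosome 4 had means from -0.59 to 0.34, yet all 3 lay above 0 on array 1 and below 0 on array 2. UGT73B5 and UGT73B4 on chromosome 2 had means of -0.28 ± 1.30 and -0.14 ± 0.94, and both lay above 0 on array 1 and below 0 on array 2. UGT85A2, UGT85A5 and UGT85A3 ran from -0.42 to 0.036, and UGT71C5, UGT71C4 and UGT71C3 from -0.21 to -0.010. Probes of near-identical paralogs can share signal. No probe sequence was used here, so that part in the likeness or difference of neighbours was not tested.

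**Figure D4:**
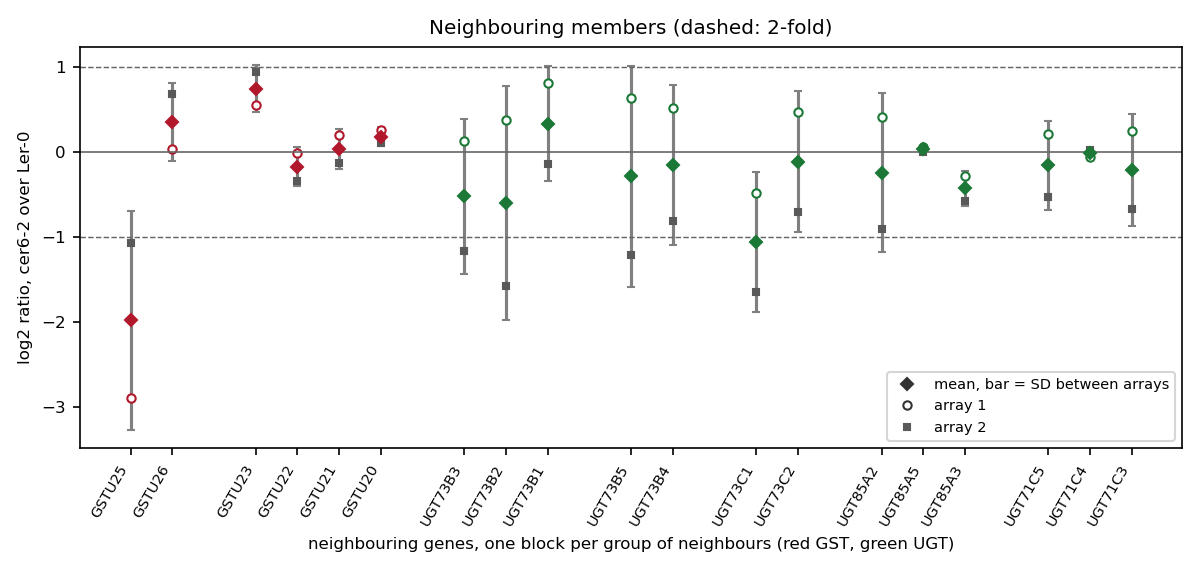
Log2 ratio of cer6-2 over Ler-0 for 7 of the 13 groups of neighbouring genes, with the mean and SD between the arrays (diamonds and bars), array 1 (open circles) and array 2 (grey squares). GSTU25 lies below -1 on both arrays beside GSTU26 above 0, and UGT73B2 and UGT73B5 have the widest bars among the UGT genes drawn.

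Other genes of the same pathways were sparsely named on the array, and none was called. Of 15 listed genes of glutathione synthesis and recycling 3 were measured, with glutathione reductases GR1 at 0.041 ± 0.0035 and GR2 at 0.096 ± 0.95, and TCHQD, a glutathione transferase of another class, at 0.17 ± 0.07. Of 12 reductases, transporters and acyltransferases of detoxification 1 was measured, the anthocyanin malonyltransferase gene 5MAT, at -0.23 ± 0.51. Of 11 genes of phenylpropanoid and flavonoid synthesis 1 was measured, DFR at -0.46 ± 0.18, and of 4 regulators none. The labelled tissue could not be checked from levels, because the values are ratios. For a difference in makeup between the pools, 4 of 7 leaf markers ran from -0.29 (SBPASE) to 0.25 (LHCB4.2), none of them called. Of 7 root markers 3 were measured and none was called. PYK10 was above 0 on both arrays, at 0.79 and 0.68 (mean 0.73 ± 0.08), whereas EXPA7 and EXPA18 had opposite signs, with means of -0.46 ± 1.02 and -0.15 ± 0.30. The part of tissue makeup in the GSTU25 difference was not tested, and a smaller share of expressing cells cannot be told apart from less RNA per cell.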

How the data were processed

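For each of 22575 features the authors deposited a ratio per array, taken here to be on a log10 scale. No source used here gives the base, which was inferred from the largest size of 2, a limit of Agilent log ratios. Each deposited column had a median of 0. Per the labels' protocols, RNA was purified with an RNeasy kit, labelled directly and hybridised to Agilent arrays. The sources used here give no background correction, dye normalisation or signal levels, so dim features could not be removed and a ratio near 0 can belong to an undetected transcript. The number of arrays limits the precision.

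Ratios were read as Cy5 over Cy3, converted to log2, and array 1 was multiplied by -1. Of the genes past 2-fold in both columns as deposited, 122 had opposite and 15 equal signs, so the columns were taken as unturned. Those 122 are the genes called after turning, GSTU25 among them, so this choice is not independent of the calls. It rests on the large differences, as only 43.5% of all named genes lay on the same side of 0 after turning. Features with 1 annotated gene were matched by gene identifier to the TAIR10.1 gene table (9317 features, 9236 genes), averaging a gene's features. 13200 features had no gene name. Named were all called members, the 6 highest and 6 lowest of each class, members near the limit or with a known role, and listed genes. UGT73 and other genes named for their difference between the arrays were chosen after their values were seen. The members and lists were chosen with earlier results of these data known. Calculations used Python 3.11.15, numpy 2.4.6 and pandas 2.3.3. The calling code was checked on simulated data with planted differences larger than the limit and independent noise on each array. That check does not cover differences near the limit or a part shared by dye. Alternatives were other thresholds, centring, single arrays, feature averaging and filters, direction, log base and wider symbols. No sequence table was used here, so sequences and promoter motifs are not reported.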

Additional observations from a re-analysis of the deposited data

How the results depend on the processing

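The count of called glycosyltransferases was 0. It was 1 at 1.5-fold (UGT76E2, higher, against 3.7% of all genes) and 1 by the mean of both arrays (UGT73C1, lower, against 2.3%). With array 1 alone it was 1 (higher), against 3.56% of all genes in either direction. With array 2 alone it was 4 (lower), against 4%. The count of called glutathione transferases was 1, and it was 0 at 3-fold (against 0.336% of all genes). It was also 0 if both columns had been turned before deposit, a reading under which only 15 of the 9236 named genes would be called. Without features over 2-fold apart between arrays (which drops GSTU25), and with the values read as log2, it was 0 as well. The share of all genes was not computed without those features or for the log2 reading. GSTU25 was the gene lost in each of these 4 settings. With each array alone it was 1, against 3.56% of all genes on array 1 and 4% on array 2. The other settings kept both counts. The signs of the class medians were not fixed by the data. The glycosyltransferase median was 0.22 on array 1, -0.37 on array 2 and -0.33 with both columns taken as already turned, and the glutathione transferase median was 0.11, -0.12 and -0.079. Centring changed the sign of 0 member means. No paired analysis was possible because the arrays share their RNA pools and form a single group. The promoter motif counts were not run, as no sequences were used. What signal over background limits could not be judged from ratios.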

Other observations

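The annotation gave 4 more glycosyltransferase genes under other symbols, which the naming rule left out and a gene table synonym placed in the family. GT72B1 (synonym UGT72B1), which glucosylates chlorinated phenols and anilines, stood at -0.14 on array 1 and -0.77 on array 2 (mean -0.45 ± 0.44). UF3GT (synonym UGT79B1), an anthocyanin xylosyltransferase, gave 0.34 and -0.56 (mean -0.11 ± 0.63). AT5G54010 (synonym UGT79B6) gave -0.11 and -0.28 (mean -0.196 ± 0.13), and the sterol glucosyltransferase SGT (synonym UGT80A2) gave -0.12 and 0.28 (mean 0.08 ± 0.29). None was called.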
